A study of Mus musculus with 5 samples.

Results

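Cancer-associated fibroblasts (CAFs) were taken from 4 single-cell libraries of mouse colon tumors under chemotherapy, as the cells with at least 5 raw UMIs (unique molecular identifiers, each a counted RNA molecule) summed over Dcn, Lum, Pcolce, Col5a2, Fstl1 and Col6a3. Members also had no UMI of Pecam1 or Cdh5, which mark endothelium, and none of Csf1r, which marks macrophages. The members were therefore chosen by the measured counts of these 9 genes, whose values appear below only as a description. Among barcodes with at least 500 genes and at most 15% mitochondrial counts, 143 of 7396 cells (1.93%) were members. They numbered 13 and 33 in replicates 1 and 2 of day 1, 24 in day 3 and 73 in day 6, and values for the 4 libraries are given in this order throughout. A further 95 cells reached 5 UMIs and were left out, 85 of them for Pecam1 or Cdh5 and 14 for Csf1r. The limit ran through sparse counts: 22 members had exactly 5 UMIs of the 6 genes, and 31 cells with 4 UMIs and none of the 3 excluded genes lay just outside.

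The 4 treated libraries came from wild-type (WT) mice with AOM/DSS tumors, made by the mutagen azoxymethane (AOM) followed by dextran sodium sulfate (DSS) colitis, and all had received 5-FU and Irinotecan. They were labelled day 1 (replicates 1 and 2), day 3 and day 6, and the study called day 1 early and days 3 and 6 late treatment. The Results of the study count these as days of treatment and its Methods as time after the last cycle. An additional library came from the colon of an untreated WT mouse, prepared by a dissociation that enriches fibroblasts, and no treated library was prepared that way. Tumor tissue went through the normal dissociation, in which fragments held back by a filter were kept and the flow-through was discarded, so that free stromal cells could be lost. Strain background (C57BL/6J;129 mixed or C57BL/6J), age and the number of tumors per library were not given for each library. Tumors without chemotherapy were not analysed here.

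Fibroblasts build the connective tissue under the colon epithelium, secreting collagens and the proteoglycans that order them. In tumors, activated fibroblasts are commonly described by a matrix program of collagens and cross-linking enzymes, an inflammatory program of cytokines and chemokines, and a contractile program of smooth muscle actin and its partners. Those that carry the receptor Pdgfra lie close to the epithelium in normal colon and supply it with WNT, BMP and growth factor signals.

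Depth ran from 5132360 to 16904947 UMIs per treated library. Members had a median of 3323, 5080, 2696 and 4782 UMIs in the 4 libraries, against 2921, 3576.5, 3140 and 2853 in all other kept cells. Xist, expressed from the inactive X chromosome, had 0, 2, 181 and 1630 UMIs over the kept cells of these libraries (it was not listed in day 1 replicate 1), and the Y-linked Ddx3y had 327, 1335, 9 and 4. Both early libraries thus carried male RNA and both late libraries female RNA, so that treatment time and sex cannot be told apart in any early-to-late comparison here. Treated libraries shared 7 to 41 kept barcodes per pair, and 6 member barcodes were also those of a kept cell in another treated library.

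Most members that were poor in squamous keratins carried fibroblast markers outside the rule, while most keratin-rich members of both day 1 libraries and of day 6 did not. Of 143 members, 48 drew at least 0.5% of their UMIs from Krt5, Krt14, Krt15 and Krt17, the keratins of squamous epithelium. This limit was set after the data were seen, and these cells are called keratin-rich members below. They numbered 2, 3, 4 and 39 in the 4 libraries. Of the 10 fibroblast markers outside the rule (Col1a1, Col1a2, Col3a1, Sparc, Pdgfra, Pdgfrb, Thy1, Vim, Mmp2 and Serping1), keratin-poor members had a median of 6, 6, 5 and 8, all other kept cells 1, 1, 1 and 0, and keratin-rich members 0.5, 2, 4.5 and 0. At least 4 of the 10 were present in 9 of 11, 24 of 30, 16 of 20 and 33 of 34 keratin-poor members. Day 3 was an exception, in which 2 of 4 keratin-rich members had at least 4 markers, with Col1a2 at 456 CPM (the UMIs summed over the cells, scaled to a common total) against 11.4 CPM in other cells. In day 1 replicate 2 the label also went against the pericyte markers of some keratin-poor members: these 5 markers summed to 3277 CPM against 17.2 CPM in other cells, and 7 members had at least 5 UMIs of the pericyte gene Rgs5.

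Day 6 decided the count of keratin-rich members. Its 39 keratin-rich members reached the limit mainly through Dcn, the collagen-binding proteoglycan decorin, with 352 UMIs and 24 cells at 5 or more. Their Col1a2 stood at 21.1 CPM, against 4113 CPM in the 34 keratin-poor members of the library and 15.3 CPM in its other cells. Trp63, a transcription factor of basal squamous cells, stood at 749 CPM in them and at 14.7 CPM in keratin-poor members. Only 2 of the 39 carried at least 4 of the 10 markers. Keratin-rich members also held more RNA per cell, with a median of 5565 UMIs in day 6 against 2601 in keratin-poor members. Doublets were not removed, and their part in these cells was not tested. Levels below are therefore given mainly for the 95 keratin-poor members, and tests over all members are given with their values without the keratin-rich members, other than DESeq2, which was run on all members.

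**Figure D1:**
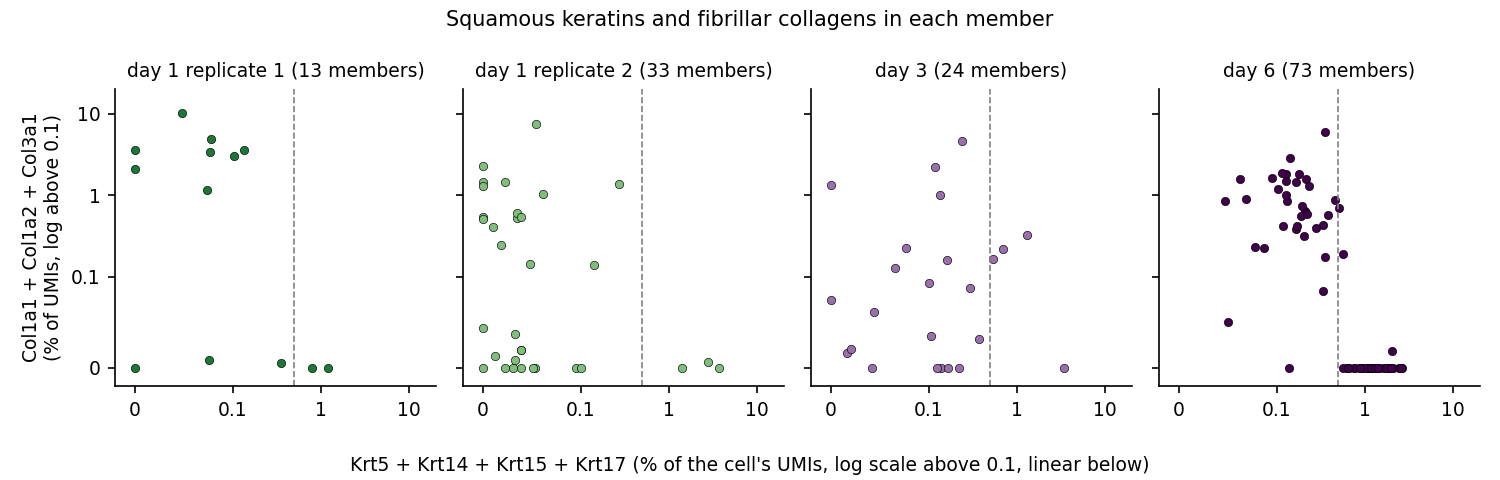
Share of each member's UMIs from 4 squamous keratins (horizontal, %) and from 3 fibrillar collagen genes (vertical, %), 1 panel per library and 1 point per cell, with both axes linear below 0.1 and logarithmic above. The dashed line is the limit of 0.5% for keratin-rich members, and nearly all of the 39 such cells of day 6 lie at a collagen share of 0.

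Lum, the proteoglycan lumican, which belongs to the rule and marks fibroblasts in many tissues, was nearly missing from the tumor members. It had 0, 0, 0 and 5 UMIs in the members of the 4 treated libraries and 645 UMIs in the 379 cells that met the same rule in the normal stroma library. In that library the rule found 379 of 1095 cells (34.6%), of which 377 had at least 4 of the 10 markers. The tumor members were thus selected mostly on Dcn, Col5a2 and Fstl1. The normal library differed in tissue, treatment and dissociation, which cannot be told apart, and its values are given below as a description only.

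Markers of other cell types were present in keratin-poor members, most of them below their level in other cells and some above it. The 5 endothelial markers outside the rule summed to 32.9, 33.0, 0 and 73.3 CPM in the 4 libraries, against 129, 132, 122 and 49.7 CPM in other cells. The 6 myeloid markers outside the rule summed to 165, 369, 338 and 103 CPM, against 1509, 1405, 289 and 686 CPM. Day 6 thus held more endothelial RNA, and day 3 more myeloid RNA, in members than in other cells. The 7 leukocyte and lymphoid markers summed to 32.9, 93.6, 105 and 660 CPM, against 1069, 596, 40.1 and 1822 CPM, with Cd3e, Cd3g and Ms4a1 at 0 in the keratin-poor members of all 4 libraries. At least 1 UMI of the 5 epithelial markers (Krt8, Krt18, Krt19, Cdh1 and Lgals4) was present in every member. These markers summed to 2896, 2655, 6961 and 5462 CPM in keratin-poor members, below the 6506, 8817, 8585 and 9809 CPM of other cells. The 4 squamous keratins summed to 1613, 319, 944 and 1422 CPM, against 1392, 1965, 3023 and 6457 CPM. In day 1 replicate 1 the sum was thus above other cells, and Trp63 stood at 477 against 36.2 CPM. That keratin sum rested largely on 1 cell, with 20976 UMIs and a keratin share of 0.353%, while the median share of the 11 cells was 0.0760%. Trp63 stood at 0 CPM in the keratin-poor members of day 1 replicate 2. The 4 smooth muscle markers summed to 65.8, 237, 46.6 and 249 CPM, against 2.57 to 7.48 CPM, and the pericyte markers are given with the cells that carry them. The 3 mesothelial and 3 glial markers stayed at or below 16.5 CPM. The part of free epithelial RNA in the members' profiles was not tested.

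The share of members among kept cells did not separate early from late libraries. All members made up 1.74%, 1.37%, 1.69% and 2.58% of kept cells, with exact 95% binomial intervals of 0.929 to 2.95, 0.947 to 1.92, 1.09 to 2.51 and 2.03 to 3.24. The late mean was 0.582 percentage points above the early mean (p = 0.667, exact two-sided permutation test over 4 libraries, in which 0.333 is the smallest p possible). Without keratin-rich members the shares were 1.47%, 1.25%, 1.41% and 1.20%, and the late mean lay below the early mean, at a difference of -0.0532 points (p = 0.667 by the same exact test). Within the libraries with a single sequencing index (day 1 replicate 1 and day 3), run on another sequencer than the rest, the share of all members went from 1.74% to 1.69% and the keratin-poor share went from 1.47% to 1.41%. Within the dual index libraries (day 1 replicate 2 and day 6) the share of all members went from 1.37% to 2.58% and the keratin-poor share from 1.25% to 1.20%. The excess of day 6 lay in its keratin-rich members. Intervals cover counting error only.

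**Figure D2:**
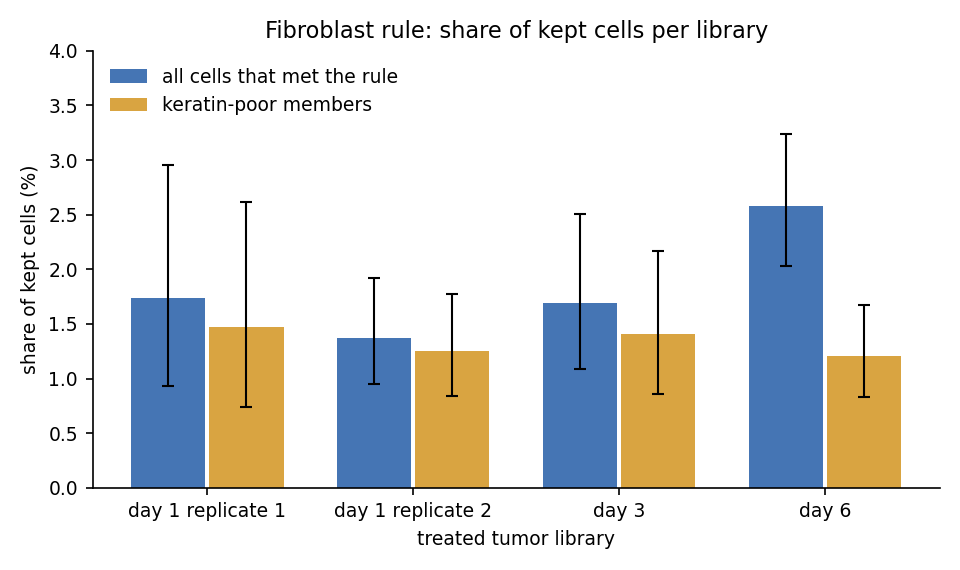
Share of kept cells (%) that met the fibroblast rule in each treated library, for all members and for keratin-poor members, with exact 95% binomial intervals as error bars. All members range from 1.37% to 2.58%, and keratin-poor members from 1.20% to 1.47%.

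Collagens led the genes that set members apart from the other cells of the same library. Genes were ranked by the fold of summed CPM (with 20 CPM added) in the library where that fold was lowest, without the 9 rule genes and with no test, since the members were chosen on these cells. Of 15042 genes, 98 (0.652%) were at least 2 times higher in members than in other cells in all 4 libraries, and 101 (0.671%) with keratin-poor members. The lowest fold was 26.3 for Col1a1 and 24.1 for Col1a2, the chains of type I collagen, followed by 13.5 for Col6a1, 12.9 for Col3a1 and 12.6 for Col6a2. The ranking went on with the type V chains Col5a1 (8.89) and Col5a3 (8.06), the complement inhibitor Serping1 (7.29), the extracellular superoxide dismutase Sod3 (6.92), the receptor kinase Axl (6.47) and Pdgfra (6.11). Sparc, Postn, Igfbp5, Lhfp, Tnc, Mmp2, the collagen chaperone Serpinh1, Nrg1 and Mmp3 completed the 20 at 4.11 to 5.65. With keratin-poor members 19 of these 20 were named again, and the chemokine Cxcl14 took the place of Nrg1.

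Of the 9 lists, the matrix list held the largest share of genes at this fold. Of its 43 genes with a value, 23 (53.5%) were at least 2 times higher in members in all 4 libraries, and 19 (44.2%) in keratin-poor members. UMIs of the list made up 3.62%, 2.51%, 0.859% and 2.95% of all UMIs in keratin-poor members. In other cells they made up 0.174%, 0.152%, 0.124% and 0.065%. Day 3 was lowest in both the list and, as given next, Col1a1 and Col3a1.

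Col1a1 stood at 8475, 2209, 1551 and 1987 CPM in keratin-poor members and at 8.66 to 18.3 CPM in other cells. Col3a1, which assembles with type I collagen in soft tissue, stood at 4460, 1388, 373 and 3468 CPM. Both were thus high in day 1 replicate 1 and low in day 3, and 51.7% of the Col1a1 UMIs of day 1 replicate 1 came from 1 of its 13 members. Sparc, a collagen-binding protein, stood at 5102, 5365, 1994 and 3937 CPM. Fn1 (fibronectin) stood at 1432, 837, 163 and 1664 CPM against 331, 238, 74.8 and 58.3 CPM in other cells. In the normal stroma members Col1a1 stood at 2731, Col3a1 at 4948, Sparc at 5841 and Fn1 at 1837 CPM.

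Basement membrane and pericellular matrix genes followed another order. Col4a1, a chain of basement membrane collagen, stood at 1284, 2523, 105 and 616 CPM in keratin-poor members, highest in day 1 replicate 2. Tnc (tenascin-C), a glycoprotein of wounds and tumor stroma, stood at 527, 925, 175 and 227 CPM. Igfbp7, which binds insulin-like growth factors, stood at 132, 1966, 105 and 1584 CPM, high in both dual index libraries and low in both single index libraries. Col6a1 and Col6a2 of type VI collagen varied less, at 408 to 1305 CPM and 386 to 968 CPM.

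The remodelling list of proteases and their inhibitors was led by 3 matrix metalloproteinases. In the list, 7 of 22 genes (31.8%) were at least 2 times higher in members in all 4 libraries, and 6 (27.3%) in keratin-poor members. Mmp13, a collagenase, stood at 230.4, 3514, 268 and 3072 CPM in keratin-poor members and at 56.8, 27.1, 9.92 and 11.1 CPM in other cells. Mmp10, a stromelysin, stood at 148, 2644, 292 and 1518 CPM, and Mmp3, another stromelysin, at 148, 1763, 595 and 191 CPM. The levels of day 6 came from 1 cell, which held all of the Mmp13 UMIs of its members, 94.5% of those of Mmp10 and 73.1% of those of Mmp3. In day 1 replicate 2 the genes were spread over 20, 22 and 11 of 33 members, and the highest cell held 24.0%, 26.9% and 50.0% of the UMIs.

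Mmp2, a gelatinase of resting fibroblasts, stood at 165, 209, 350 and 704 CPM. Unlike the levels of the 3 proteases in day 6, it was spread over many cells there, in 34 of 73 members. The inhibitor Timp2 stood at 247, 325, 140 and 719 CPM, and Timp3 had a UMI in 1, 5, 0 and 3 members. In the normal stroma members Mmp3, Mmp10 and Mmp13 stood at 14.7, 4.89 and 0.815 CPM, while Mmp2 stood at 600 and Timp2 at 1819 CPM. The collagenase and stromelysin genes were thus near 0 in the 379 normal cells, while Mmp2 and Timp2 were not.

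Mmp13, Mmp3 and Mmp10 lie in that order within 229948 bases of chromosome 9. Their promoters, and that of Il11, are shown as examples of genes that were high in the same library and, as given below, in the same cells of it. Those cells were chosen by the 3 proteases. Cxcl1, Ptgs2 and Il1rl1 were high in them too and are not shown. Each sequence is the 120 bases before the transcription start on the gene's own strand in RefSeq on GRCm38.p6, and capitals mark TGANTCA, the binding sequence of AP-1 (dimers of Fos and Jun proteins). The positions are chr9:7272394-7272513 (plus strand), chr9:7445702-7445821 (plus), chr9:7502222-7502341 (plus) and chr7:4778142-4778261 (minus, from 1 of 2 annotated starts of Il11).
Mmp13: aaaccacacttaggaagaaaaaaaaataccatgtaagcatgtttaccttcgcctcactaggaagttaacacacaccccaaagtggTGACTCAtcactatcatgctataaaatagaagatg
Mmp3: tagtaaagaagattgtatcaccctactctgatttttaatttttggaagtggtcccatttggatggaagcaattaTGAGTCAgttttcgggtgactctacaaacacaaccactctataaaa
Mmp10: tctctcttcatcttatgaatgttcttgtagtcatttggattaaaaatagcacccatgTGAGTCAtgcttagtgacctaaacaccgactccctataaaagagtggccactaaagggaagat
Il11: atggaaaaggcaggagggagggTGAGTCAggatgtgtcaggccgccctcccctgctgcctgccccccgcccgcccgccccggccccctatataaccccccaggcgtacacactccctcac
The motif begins 35, 46, 63 and 98 bases before the start in Mmp13, Mmp3, Mmp10 and Il11. It reads the same on both strands, and TGANTCA was found in 1071 of 27025 genes with a promoter in the table (3.96%) and in 3.41% of all windows of this length. It was in 4 of the 14 remodelling genes with a promoter there (28.6%), in 2 of 25 inflammatory genes (8%) and in 1 of 27 matrix genes (3.70%). Mmp13, Mmp3 and Mmp10 are 3 of those 4 remodelling genes. A match is a description of letters. The 4 genes printed were chosen after their levels were seen, and only windows that hold the motif are printed.

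The inflammatory program was uneven between libraries. Of 31 genes with a value, 4 (12.9%) were at least 2 times higher in members in all 4 libraries, and 4 in keratin-poor members. Il11, a cytokine of the IL-6 family made by stromal cells, stood at 65.8, 1294, 128 and 623 CPM in keratin-poor members, with 90.7% of its UMIs in day 6 from 1 member. Il1rl1, the receptor of the alarmin IL-33, stood at 362, 1977, 735 and 528 CPM against 64.4, 19.9, 17.5 and 5.61 CPM in other cells. It was found in 4, 16, 15 and 3 members, and in day 6 1 member held 95.9% of its UMIs.

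The neutrophil-attracting chemokines Cxcl1 and Cxcl5 stood at 65.8, 2402, 257 and 1099.8 CPM and at 263, 1041, 268 and 1305 CPM in keratin-poor members. Cxcl5 was also present in other cells, at 180, 309, 339 and 414 CPM, so that its lead over them was small in day 1 replicate 1 and absent in day 3. The day 6 level of Cxcl5 came mainly from 1 cell. By the classes defined below, it stood at 297 CPM in the 22 collagen-rich cells of day 6 and at 111 CPM in the 11 that were neither. Ptgs2 (cyclooxygenase 2), which makes prostaglandins, stood at 148, 2451, 35.0 and 902 CPM, again with 94.4% of the UMIs of day 6 from 1 member. Il6 itself was sparse, with 2, 16, 0 and 3 UMIs. Day 1 replicate 2 was thus the library in which Il11, Cxcl1, Ptgs2 and the 3 proteases were found in many members (17, 18 and 18 of 33 for the first 3), although 1 cell held 53.2% of the Il11, 38.0% of the Cxcl1 and 34.7% of the Ptgs2 UMIs. In day 6 they rested mainly on 1 cell.

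Other inflammatory genes had other orders. Saa3, an acute phase apolipoprotein, stood at 115, 286, 2775 and 139 CPM, highest in day 3, where it was found in 13 of 24 members. Cxcl14, a chemokine of mucosal fibroblasts, stood at 839, 149, 595 and 374 CPM in keratin-poor members against 4.88 to 16.6 CPM in other cells. Cxcl12, which holds leukocytes and progenitor cells in tissue, stood at 32.9, 0, 70.0 and 579 CPM, and C3 and C4b of the complement system at 32.9, 22.03, 257 and 697 CPM and at 230.4, 5.51, 0 and 975 CPM. In the normal stroma members Cxcl12, C3 and C4b stood at 1913, 725 and 513 CPM, Il11 and Il1rl1 at 4.89 and 5.70 CPM, Saa3 at 2.44 CPM, Cxcl1 at 339 CPM and Ptgs2 at 430.2 CPM. Cxcl12, C3 and C4b were each highest in day 6 among the treated libraries, and 1 cell held 87.5% of the C3 UMIs of day 3.

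Shares of cells with a UMI were compared at equal depth, by drawing 1000 UMIs from each cell and leaving out shallower ones (in the treated libraries 1 keratin-poor member and 169 other cells, all of day 6). Il11 was then in 2 of 11, 14 of 30, 3 of 20 and 1 of 33 keratin-poor members and in 1.36%, 0.549%, 0.860% and 0.348% of other cells. Without drawing, it was in 3 of 11, 17 of 30, 5 of 20 and 3 of 34 keratin-poor members (median 3323, 4549, 2394 and 2601 UMIs) and in 4.35%, 3.38%, 3.66% and 0.944% of other cells. Mmp13 at equal depth was in 2 of 11, 16 of 30, 5 of 20 and 1 of 33 keratin-poor members, against 2.04%, 1.52%, 1.00% and 1.16% of other cells, and unthinned in 2 of 11, 20 of 30, 7 of 20 and 1 of 34 against 6.53%, 4.98%, 3.51% and 2.58%. In day 6 both shares at equal depth rested on 1 cell.
Col1a2 was in 8 of 11, 9 of 30, 9 of 20 and 29 of 33 keratin-poor members at equal depth (8 of 11, 16 of 30, 13 of 20 and 33 of 34 unthinned), against 1.22%, 1.10%, 1.00% and 1.66% of other cells, and in 94.2% of the normal stroma members. The library with the lowest share of Col1a2-carrying members at equal depth, day 1 replicate 2, was the one with the highest shares that carried Il11 and Mmp13. Cxcl12 was in 1 of 11, 0 of 30, 1 of 20 and 13 of 33 keratin-poor members at equal depth and in 68.4% of normal stroma members.

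**Figure D3:**
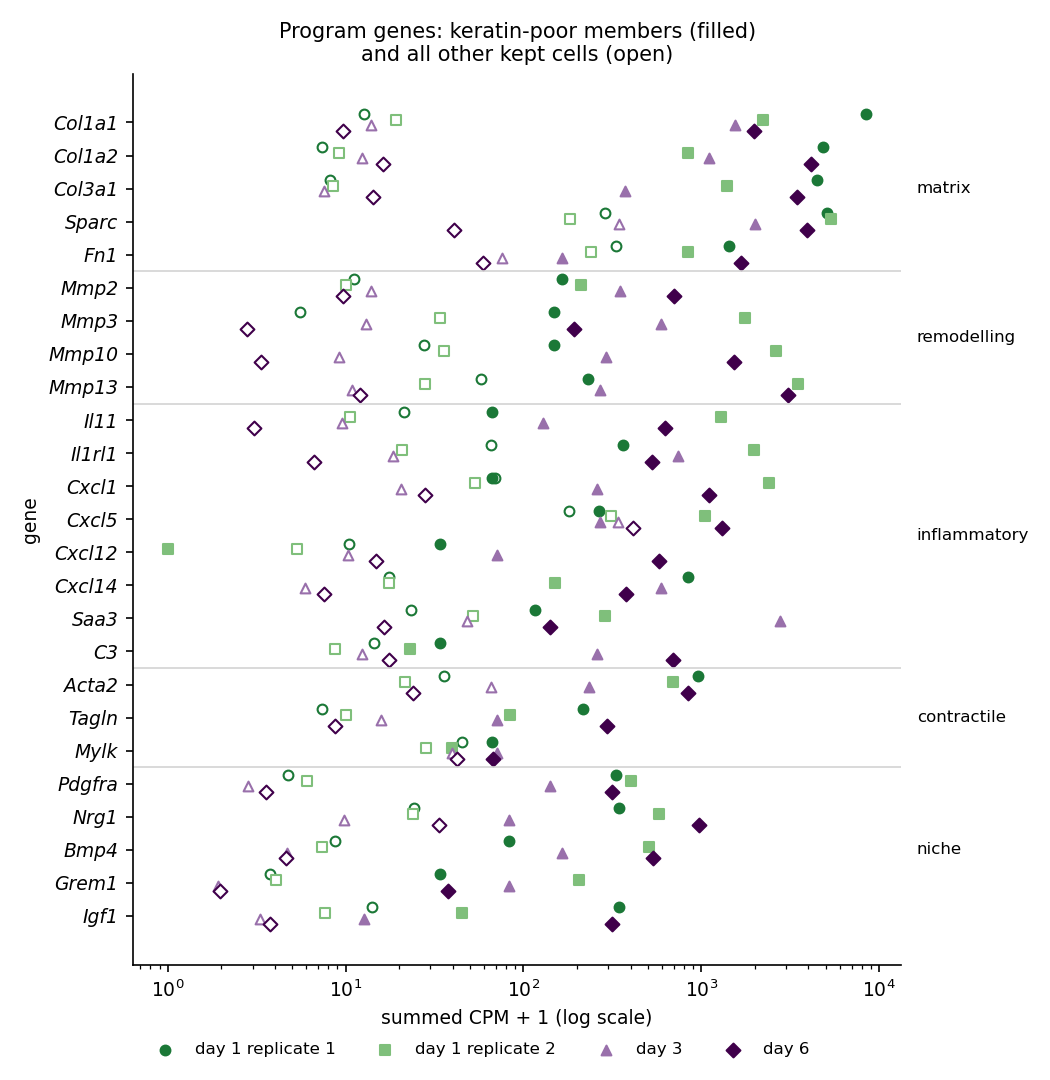
Summed CPM plus 1 (log scale) of 25 genes, in keratin-poor members (filled) and all other kept cells (open) of the 4 treated libraries. Collagen genes lie far above the open symbols in every library, while Cxcl5 and Mylk overlap with them. In day 6 the levels of Mmp13, Mmp10, Il11, Il1rl1, Cxcl1 and Cxcl5 come mainly from 1 cell.

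Proteases and fibrillar collagens were found in mostly separate cells, and 12 of the 15 protease-rich cells were from day 1 replicate 2. Most collagen-rich cells of that library carried pericyte markers, as given below. Keratin-poor members were called protease-rich with at least 0.5% of their UMIs from Mmp3, Mmp10 and Mmp13, and collagen-rich with at least 0.5% from Col1a1, Col1a2 and Col3a1. Both limits were set after the data were seen. Of 95 cells, 15 were protease-rich, 44 collagen-rich, 2 both and 34 neither. Protease-rich cells numbered 0, 12, 2 and 1 in the 4 libraries, and collagen-rich cells 7, 11, 4 and 22. These are ranges of a continuous share and not types, and 17 cells lay between 0.25% and 1% for the proteases and 22 for the collagens.
Among the 379 normal stroma members 327 were collagen-rich and 0 protease-rich, and the highest protease share there was 0.112%. Among the other cells of the treated libraries 3, 6, 1 and 2 passed the protease limit and 0, 3, 0 and 7 the collagen limit. Protease-rich members were thus mostly from 1 library, while collagen-rich members were found in all.

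**Figure D4:**
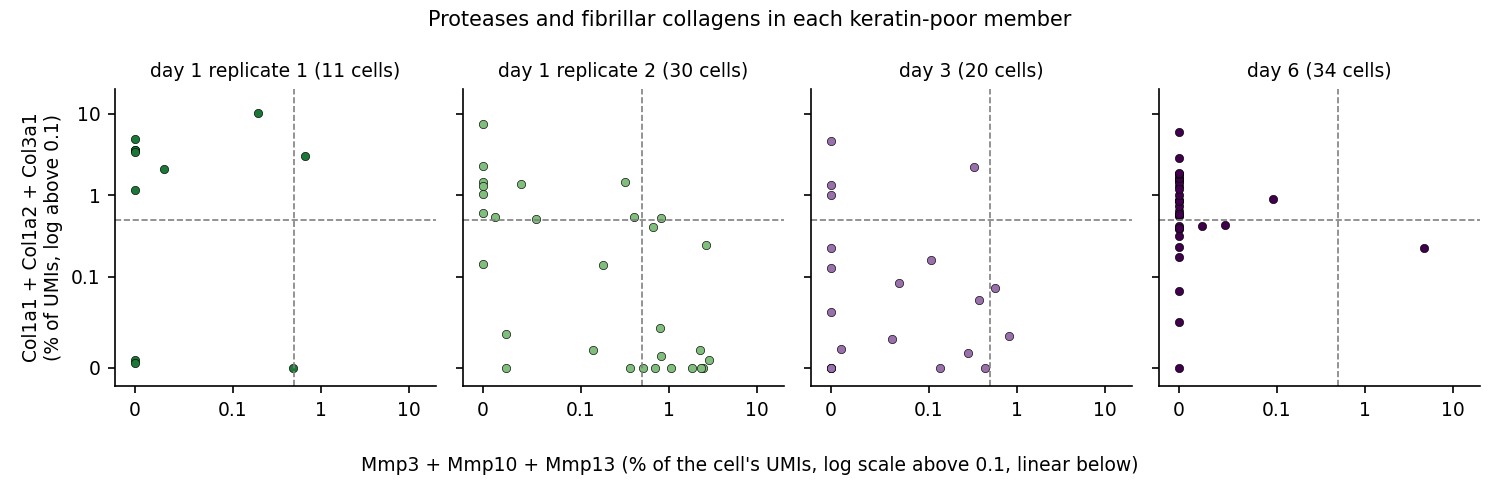
Share of each keratin-poor member's UMIs from Mmp3, Mmp10 and Mmp13 (horizontal, %) and from Col1a1, Col1a2 and Col3a1 (vertical, %), 1 panel per library and 1 point per cell, linear below 0.1 and logarithmic above, with dashed lines at 0.5%. Points in the upper right, which pass both limits, number 1 in each day 1 library and 0 in day 3 and day 6.

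Only day 1 replicate 2 had at least 10 cells of each kind, and its 12 protease-rich and 11 collagen-rich members (median 6088 and 3250 UMIs) are described without a test, since the cells were chosen by measured values within 1 library. The genes named for this split were picked after their values were seen. The inflammatory list was divided between both kinds. Of its 35 genes, 13 had a higher CPM in protease-rich cells, 12 in collagen-rich cells and 10 no UMI in either. Cxcl1 stood at 5464 against 32.6 CPM in collagen-rich cells, Ptgs2 at 5632 against 0 CPM, Il1rl1 at 4302 against 48.9 CPM and Il11 at 2506 against 587 CPM. Each of these 4 genes was found in 11 of the 12 protease-rich cells. Cxcl2 (3049 against 16.3 CPM) and Cxcl5 (2248 against 48.9 CPM) went the same way, with 149 of 236 and 110 of 174 UMIs from 1 cell, as did Il11 with 125 of 194. Higher in collagen-rich cells were Cxcl14 (12.9 against 408 CPM), Ccl7 (0 against 277 CPM) and Il6 (0 against 147 CPM). So were Ccl2 (12.9 against 131 CPM) and Osmr (51.7 against 196 CPM), with 2 to 6 of 11 cells carrying each gene. These counts were small. The highest collagen-rich cell held 14 of 25 UMIs for Cxcl14, 13 of 17 for Ccl7 and 8 of 9 for Il6. For Ccl2 it was 7 of 8 and for Osmr 4 of 12.

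The protease-rich cells were also the Dcn-rich and Pdgfra-carrying ones. Dcn stood at 8241 against 1142 CPM, and Pdgfra at 853 against 48.9 CPM, with a Pdgfra UMI in 9 of 12 and 2 of 11 cells. Dcn belongs to the rule, and other rule genes went the other way. Col5a2 stood at 788 against 2969 CPM, Fstl1 at 723 against 3263, Col6a3 at 90.4 against 375 and Pcolce at 103 against 294. Lum had no UMI in either kind. Both kinds thus met the rule largely through different genes. Signals to the epithelium lay with the protease-rich cells. The BMP ligands Bmp2 and Bmp4 stood at 1899 against 16.3 CPM and at 1008 against 48.9 CPM, the EGF receptor ligand Ereg at 1098 against 0 CPM, the ErbB ligand Nrg1 at 878 against 48.9 CPM, Fgf7 at 646 against 0 CPM, and the BMP antagonist Grem1 at 362 against 0 CPM. The protease cathepsin L (Ctsl) and the protease inhibitor Serpine2 stood at 4211 against 701 CPM and at 3049 against 653 CPM.

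The collagen-rich cells of the same library carried basement membrane and mural cell genes. Sparc stood at 13279 against 1860 CPM in protease-rich cells, Col4a1 at 5693 against 1085 CPM, Igfbp7 at 4470 against 904 CPM and Fn1 at 2007 against 258 CPM. Rgs5, a marker of pericytes, the contractile cells around capillaries, stood at 6998 against 77.5 CPM, and the pericyte genes Notch3 and Cspg4 at 783 against 12.9 CPM and at 767 against 38.75 CPM. Acta2 (smooth muscle actin) stood at 1990 against 25.8 CPM. Of these 11 cells, 7 had a UMI of Rgs5 and 8 of Cspg4, against 2 and 1 of the 12 protease-rich cells. The protease-rich and collagen-rich cells thus differed in pericyte markers as well as in matrix and protease genes. Vim was similar in both, at 2984 in protease-rich and 3067 CPM in collagen-rich cells.

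**Figure D5:**
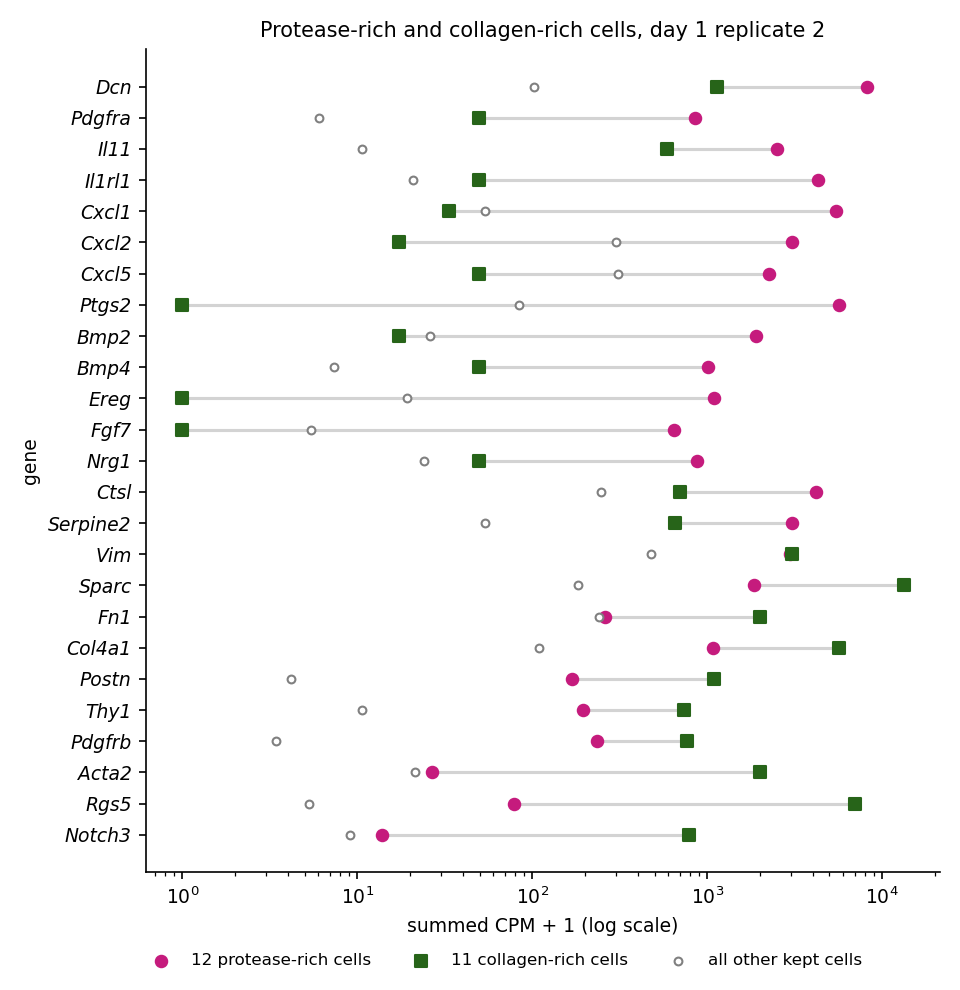
Summed CPM plus 1 (log scale) of 25 genes in the 12 protease-rich cells (circles), the 11 collagen-rich cells (squares) and the 2370 other kept cells (open circles) of day 1 replicate 2. Grey lines join both kinds of member. Genes from Dcn to Serpine2 are higher in protease-rich cells, genes from Sparc to Notch3 in collagen-rich cells, and Vim stands at 2984 and 3067 CPM.

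Among the pericyte genes, Rgs5 set day 1 replicate 2 apart from the other libraries. At least 5 UMIs of Rgs5 were found in 0, 7, 0 and 0 members of the 4 libraries, and 3 cells of day 1 replicate 2 held 90.8% of its 435 Rgs5 UMIs. The 5 pericyte markers summed to 477, 3277, 58.3 and 80.7 CPM in keratin-poor members, against 17.2 to 28.0 CPM in other cells. Notch3 and Cspg4 were nearer to each other in the day 1 libraries, at 146 and 211 CPM and at 159 and 220 CPM in all members. In the 22 collagen-rich members of day 6, Rgs5 stood at 25.8 CPM, Dcn at 9424, and Adamdec1, a protease-like gene of lamina propria fibroblasts and macrophages, at 2027 CPM. These cells also carried C4b (1304 CPM), C3 (917 CPM), Clec3b (852 CPM) and Cxcl12 (658 CPM), with C4b in 22 of 22 and C3 in 20 of 22.
The 7 collagen-rich members of day 1 replicate 1 had Cxcl14 at 1966, Adamdec1 at 1589 and the growth factor Igf1 at 837 CPM. Among the 14 day 3 members that were neither protease-rich nor collagen-rich, Saa3 stood at 3183 CPM (9 cells) and Il1rl1 at 778 CPM (10 cells). The same rule thus gathered cells of different composition in each library, also between both replicates of day 1. Day 3 and day 6 had 1 library each, which does not separate day from library.

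Contractile cells were rare among the members. With a limit of 1% of UMIs from Acta2, Tagln and Mylk and no Pdgfra UMI, 0, 0, 0 and 1 member was contractile, and 4, 14, 8 and 18 had Pdgfra without reaching 1%. One cell of day 1 replicate 1 met both criteria, and 8, 19, 16 and 54 met neither. The contractile share was 0% in both day 1 libraries and in day 3, with exact 95% binomial intervals reaching 24.7%, 10.6% and 14.2%, and 1.37% in day 6 (0.0347 to 7.40). The late mean was 0.685 percentage points above the early mean (p = 1, exact two-sided permutation test over 4 libraries). Without keratin-rich members the share was 0% in 3 libraries and 2.94% in day 6, and the difference was 1.47 points. By the same limits 43 of the 379 normal stroma members were contractile, 201 had Pdgfra, 5 met both criteria and 130 met neither. Such cells were rare in the treated libraries as a whole, in which 1, 0, 2 and 3 kept cells of any kind reached 1%.

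Pdgfra members made up 30.8%, 42.4%, 33.3% and 24.7% of all members, and the late mean lay below the early mean, at a difference of -7.60 percentage points (p = 0.667, exact two-sided permutation test). Without keratin-rich members Pdgfra members were 4 of 11, 14 of 30, 8 of 20 and 17 of 34, and the late mean was 3.48 points above the early mean (p = 0.667, by the same exact test). The direction thus depended on the keratin-rich members. No library had 10 contractile members, so that contractile and Pdgfra members were not compared gene by gene.
In keratin-poor members Acta2 stood at 954, 689, 233 and 836 CPM against 20.5 to 64.8 CPM in other cells, and Tagln at 214, 82.6, 70.0 and 293 CPM. Acta2 was present in 6, 12, 8 and 19 members. Of the 25 contractile genes, 7 (28%) were at least 2 times higher in members in all 4 libraries, namely Acta2, Tagln, Cald1, Csrp1, Flna, Tgfb1i1 and Thy1, and 7 in keratin-poor members, with the calponin Cnn2 in place of Tgfb1i1. Mylk was close to its level in other cells, at 65.8, 38.6, 70.0 and 66.0 CPM against 44.4, 27.2, 38.6 and 41.3 CPM. In the normal stroma members Acta2, Tagln and Mylk stood at 3223, 1814 and 1063 CPM.

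Of 35 niche signal genes with a value, 8 (22.9%) were at least 2 times higher in members in all 4 libraries, and 11 (31.4%) in keratin-poor members. Nrg1, which signals through ErbB receptors, stood at 346, 578, 81.6 and 968 CPM in keratin-poor members and at 28.5 CPM in the normal stroma members. Bmp4 stood at 82.3, 507, 163 and 535 CPM, Wnt5a, a ligand of noncanonical WNT signaling, at 247, 353, 46.6 and 227 CPM, and the WNT antagonist Sfrp1 at 362, 5.51, 81.6 and 352 CPM. Grem1 had its highest level, 204 CPM, in day 1 replicate 2, where it was in 10 of 33 members. The laminin chain gene Lama1 had 5, 3, 4 and 10 UMIs in all members. Igf1 stood at 346, 44.1, 11.7 and 315 CPM. Pdgfrb, the platelet-derived growth factor receptor of mural cells and fibroblasts, stood at 329, 386, 58.3 and 103 CPM, and Fgf7, which acts on epithelium, at 49.4, 342, 46.6 and 169 CPM. Day 3 was thus low in Nrg1, Wnt5a and Igf1, and day 1 replicate 2 in Sfrp1 and Igf1.

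The lists of damage response (20 genes), proliferation (24), interferon and antigen presentation (28) and early stress (19) held 0 genes that were at least 2 times higher in members in all 4 libraries. Of all genes 98 of 15042 (0.652%) were, so that 0 in lists of this length is near the share of all genes. The p53 target Cdkn1a stood at 872, 788, 1049 and 484 CPM in keratin-poor members and at 1112, 908, 1065 and 402 CPM in other cells. Early stress genes took 0.222% to 0.472% of UMIs in keratin-poor members and 0.298% to 0.321% in other cells of the treated libraries. In the normal stroma members they took 3.44%, with the immediate early gene Fos at 7466 CPM against 98.7 to 292 CPM in the tumor members. Interferon and antigen presentation genes took 0.895%, 0.310%, 0.646% and 1.81% in keratin-poor members and 0.749%, 0.433%, 0.648% and 1.83% in other cells. Both were highest in day 6 and lowest in day 1 replicate 2.

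No gene passed the test between late and early members. Counts were summed per library over members and compared by edgeR's quasi-likelihood test with Benjamini-Hochberg adjustment over 4045 genes, of which 0 (0%) were called at an adjusted p of 0.05 and 183 (4.52%) had an unadjusted p under 0.05. DESeq2 called 8 of 2898 genes (0.276%), 3 higher and 5 lower. Those lower late were the hemoglobin genes Hba-a1, Hba-a2 and Hbb-bs, the ribosomal gene Rpl39 and Col4a1. Those higher were Ltf (lactotransferrin), Lypd8, made by colon epithelium, and Krt13, a squamous keratin. Hba-a1 stood at 239, 3502, 19.0 and 16.05 CPM in members and at 1754, 3473, 209 and 143 CPM in other cells. It thus lay lower in both late libraries in both classes. In day 1 replicate 2, 1 protease-rich member held 308 of the 320 Hba-a1 UMIs of its kind. Likewise 1 collagen-rich member held 466 of 476.

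The genes with the smallest unadjusted p in edgeR are given as not called (adjusted p = 0.745 for each). C3 had 2, 4, 24 and 103 UMIs in members, at 26.5, 17.2, 228 and 275 CPM, with a log2 difference of 3.72 (SE 0.66). Clec3b (tetranectin) stood at 13.3, 4.31, 75.8 and 241 CPM (log2 difference 4.59, SE 0.98). Both were higher in each late library than in each early one, and in day 3 C3 was found in 4 members and Clec3b in 1. Ltf, Gsdmc4 and Pde9a had log2 differences of 6.47, 3.35 and 2.90. In the late libraries they stood at 190 and 901, 190 and 227, and 218 and 152 CPM in members, below the 260 and 1640, 220.02 and 488, and 260 and 278 CPM of other cells.
On the other side, Notch3 stood at 146, 211, 9.48 and 10.7 CPM (log2 difference -3.93, SE 0.68) and Cspg4 at 159, 220, 0 and 10.7 CPM (-4.41, SE 0.82). Ereg stood at 199, 383, 28.4 and 34.8 CPM (-3.05, SE 0.66). Hba-a1 (-6.63) and Rpl39 (-3.19) completed the list. Without keratin-rich members C3, Ltf, Gsdmc4 and Pde9a had log2 differences of 4.22, 5.86, 3.46 and 3.55, and Notch3, Cspg4, Ereg, Hba-a1 and Rpl39 of -5.34, -4.57, -2.40, -6.62 and -3.57, again with none called in edgeR (adjusted p = 0.874). Clec3b then had no UMI in either day 1 library. Rpl39 moved likewise in the other cells, from 850 and 455 CPM to 54.3 and 51.9 CPM.

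Read by list, the median of the matrix genes was negative, and it was nearer to 0 without the keratin-rich members. Of 33 matrix genes tested, 8 had an unadjusted p under 0.05 and a lower late level (Col4a1, Col4a2, Col5a3, Col15a1, Col18a1, Nid1, Thbs1 and Tnc), with none higher, and the list's median log2 difference was -1.03, against 0.0074 over all 4045 genes. Without keratin-rich members 1 of 32 had such a p and the median was -0.55. The pericyte markers were highest in day 1 replicate 2. Col4a1, Col4a2, Col15a1, Col18a1 and Nid1 were all higher in the collagen-rich cells of that library than in its protease-rich ones. The part of pericyte-like cells in the lower late levels was not tested. Without the 7 Rgs5-rich cells 6 of 33 had such a p, all lower late, and the median was -0.86. Without both keratin-rich and Rgs5-rich members it was 1 of 32 (Tnc) and -0.38. Of 16 remodelling genes 3 had an unadjusted p under 0.05, all lower late (median -1.23, and -0.60 without keratin-rich members). Of 19 niche genes 5 were lower (Pdgfrb, Tgfb2, Wnt5a, Bmp2 and Ereg, median -1.12, and -0.13 without keratin-rich members). Of 14 inflammatory genes C3 alone had such a p (higher late), of 15 contractile genes Cald1 (lower) and of 8 damage response genes Trp53inp1 (lower). Of 12 proliferation genes 2 were higher (Mcm6 and Rrm1) and of 15 interferon and antigen presentation genes 3 (Cd74, H2-Ab1 and H2-Eb1), in both lists 0 without keratin-rich members, and of 14 early stress genes 0 passed. These counts stand beside 4.52% of all genes and are not calls.

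A change between early and late that differed between members and the other cells of the same libraries was called for 39 of 13526 genes (0.288%), 16 (0.118%) with a higher and 23 (0.17%) with a lower late level in members relative to other cells (edgeR interaction of time and cell class, with each library as a block). Without keratin-rich members 38 genes were called, 24 higher and 14 lower, so that the balance of directions turned, and 21 genes were shared by both calls. Of the fibroblast lists, edgeR called C3 (log2 difference of the changes 2.95, SE 0.76, adjusted p = 0.0425), Mmp10 (2.07, adjusted p = 0.0425) and the WNT antagonist Dkk2 (3.72, adjusted p = 0.00134) higher. Tnc (-2.08, adjusted p = 0.0187), Col3a1 (-1.95, adjusted p = 0.0322) and Tpm2 (-2.37, adjusted p = 0.00325) were called lower by edgeR. C3, Mmp10, Dkk2 and Tpm2 were called without keratin-rich members too, with edgeR adjusted p of 0.00188, 0.000897, 0.000114 and 0.0183, and Tnc (0.0798) and Col3a1 (0.195) were not. Cxcl2 (log2 2.35), Saa3 (2.15) and the elastin gene Eln (3.797) were called higher there and not over all members, with edgeR adjusted p of 0.00684, 0.0102 and 0.0392.

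The calls differed in which cells changed. Dkk2 stood at 39.8, 38.77, 66.4 and 18.7 CPM in members, while in other cells it stood at 330.2 and 418 CPM early and at 75.1 and 6.43 CPM late. Mgp, a calcification inhibitor of the matrix, was lower late in both classes, at 2135, 1257, 457 and 49.9 CPM in other cells and at 1087, 513, 332 and 267 CPM in members. Mmp10 stood at 119, 2068, 322 and 580.4 CPM in members, with 94.5% of the day 6 UMIs from 1 cell, and at 26.7, 34.8, 8.24 and 2.36 CPM in other cells. C3 changed in members, at the levels given above, and stood at 13.5, 7.67, 11.4 and 16.6 CPM in other cells.
The pericyte genes Notch3 (-5.12), Cspg4 (-5.62), Rgs5 (-3.68) and Ebf1 (-3.58) were called lower late in members. Without the 7 Rgs5-rich cells of day 1 replicate 2 none of the 4 was called (adjusted p from 0.325 to 1 in edgeR), and 29 genes were called in all. Cspg4 then stood at -4.17, Notch3 at -3.04 and Ebf1 at -2.06, still lower late, while Rgs5 turned to 1.16. The removed cells were chosen by their Rgs5 UMIs and all came from day 1 replicate 2, so the turn of Rgs5 follows from the cut. Cspg4, Notch3 and Ebf1 were high in the collagen-rich cells of that library, most of which carried Rgs5. Their loss of the call is thus no independent check. Rgs5 stood at 1874 CPM in the members of day 1 replicate 2 and at 9.48 to 18.7 CPM in those of the other 3 libraries.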

How the data were processed

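The authors processed the reads with dropEst against GRCm 38 and deposited a table of UMI counts for each library, as raw whole numbers with no normalization. Counts of kept cells were summed per library over members and over other cells. Members and gene lists were chosen with earlier results of these data known. Late (days 3 and 6) and early (day 1) sums were compared with edgeR 4.0.16 (quasi-likelihood test, TMM, filterByExpr, Benjamini-Hochberg, threshold 0.05) in R 4.3.3, with DESeq2 1.42.0 as an alternative. The libraries are separate samples per the labels. Shares were compared by exact permutation tests over libraries. Other values were computed in Python 3.11.15 (numpy 2.4.6, scipy 1.17.1, pandas 2.3.3, matplotlib 3.10.9). Named genes were the 20 with the highest lowest fold against other cells, up to 5 genes each way with the smallest p where none was called (up to 10 where some were), up to 8 genes per list by mean level, and the genes the study names for its fibroblasts. Fits were tested on simulated data. No doublet caller was run. Alternatives are in the closing section.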

Additional observations from a re-analysis of the deposited data

Results flagged for a closer look

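For the following 20 genes the change from early to late in members differed from that in the other cells of the same libraries, by the interaction term in edgeR, at an adjusted p below 0.05. They are the 10 genes in each direction with the smallest p, and the values are log2 differences of the changes. Relative to other cells, members were higher late for Dkk2 (3.72), Plcb1 (3.56), Cadps (3.69), Clu (3.05), Wif1 (2.59), Prkg2 (2.84), Scube1 (4.09), Mgp (2.07), Prex2 (3.67) and Apcdd1 (13.09). Apcdd1 had 0 CPM in the members of both day 1 libraries, so that its size is no bound. Dkk2, Wif1 and Apcdd1 are WNT antagonists. Without keratin-rich members Cadps, Wif1 and Prkg2 were not called (edgeR adjusted p of 0.246, 0.0577 and 0.0662), and the other 17 of the 20 genes were. Those 17 include Krt15, by which the removed cells were chosen, and Trp63. In day 6 Trp63 stood at 749 CPM in the removed cells and at 14.7 CPM in keratin-poor members. That these genes stayed called as lower late is thus no check of the call.

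Members were lower late, relative to other cells, for Notch3 (-5.12), Meis1 (-2.97), Rgs5 (-3.68), Ebf1 (-3.58), Krt15 (-2.40), Cspg4 (-5.62), Cyp2f2 (-3.13), Tpm2 (-2.37), Pde3a (-3.85) and Trp63 (-2.44). Notch3, Rgs5, Ebf1, Cspg4 and Pde3a were not called without the 7 Rgs5-rich cells of day 1 replicate 2. Their values were then -3.04, 1.16, -2.06, -4.17 and -2.81. Those cells were removed by their Rgs5 UMIs, so the turn of Rgs5 follows from the cut. Krt15 and Trp63 are squamous genes. Trp63 stood at 530.01, 168, 9.48 and 481 CPM in members and at 36.2, 15.5, 32.0 and 122 CPM in other cells. Sex and treatment time cannot be told apart in any of these changes.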

How the results depend on the processing

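The number of genes called between late and early members was 0 in edgeR with DESeq2 size factors, sequencing index as a block, day as a covariate, member limits of 3 or 10 UMIs, no cell filters, without Ptprc-carrying members or those with most epithelial RNA, and, chosen after seeing the data, without keratin-rich members, Rgs5-rich members or both, with 95 to 236 genes at an unadjusted p under 0.05. It was 8 in DESeq2 and 50 without the filter on low counts. Leaving out 1 library gave 0 to 74, with 51 without day 1 replicate 1 and 74 without day 6, where the lone library of a group is assumed to vary like the other group. The interaction called 2 genes against other cells with few epithelial UMIs, where 1754 genes could be tested, and 22 to 97 when 1 library was left out (97 without day 1 replicate 1 and 22 without day 1 replicate 2). Other alternatives gave 29 to 44. The cause was not tested.

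The late minus early share of members (0.582 points) became -4.34 among cells with few epithelial UMIs, -0.0532 without keratin-rich members and -0.0107 after thinning to 1000 UMIs, was 1.88 with a member limit of 3 UMIs and 0.0309 with one of 10, and ranged from 0.136 (without day 6) to 1.03 when 1 library was left out. The contractile share (0.685) became -3.16 with a Pdgfra limit of 2 UMIs and -3.13 after thinning, was 2.62 with a contractile limit of 0.5%, 2.66 with a member limit of 3 UMIs and 0 with one of 10, and ranged from 0 to 1.37 with 1 library left out. The Pdgfra share (-7.60) became 3.48 without keratin-rich members, was -14.5 to -7.60 under the other alternatives on all libraries and ranged from -13.4 to -1.77 with 1 library left out. Rgs5 became 1.16 without Rgs5-rich members and 1.73 without keratin-rich members too, which follows from a cut on Rgs5 itself. With 1 library left out Rgs5 ranged from -5.58 to 2.09. Under the same leave-one-out, Scube1 ranged from -7.08 to 5.05 and Cyp2f2 from -4.34 to 5.38. With 2 libraries against 2, no share could reach a p below 0.333. Of the other values of named genes, 124 kept their call and 62 lost it for the interaction, while 143 kept theirs and 22 became called between late and early members.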
